A study of Homo sapiens with 14 samples.

Results

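The mesenchymal transition regulators and markers examined here were 10 genes, chosen by name: the transcription factors SNAI1, SNAI2, TWIST1, ZEB1 and ZEB2, the cadherin CDH2, the intermediate filament gene VIM, and the secreted matrix genes FN1, SPARC and TGFBI. All 10 were found among the 59471 gene names of the count files, and 8 or 9 of them had enough reads to be tested in each comparison. RNA-seq was performed on SCC23, an established cell line of head and neck squamous cell carcinoma (HNSCC), in 14 libraries from 2 experiments. KMT2D-WT cells, which had received Cas9 with a guide against LacZ, were compared with the CRISPR-Cas9 KMT2D-KO lines KO1 and KO2, and each was kept in glucose (+Glc) or deprived of it for 6 h (-Glc). Each glucose condition held 3 KMT2D-WT libraries (1 of experiment 1 and 2 of experiment 2) and 4 KMT2D-KO libraries (1 of each line in each experiment). All cells had passed through plasmid transfection and sorting for GFP, and no cloning of single cells was described, so that each line may hold a mixture of edited alleles.

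In epithelial-mesenchymal transition, epithelial cells loosen their junctions and take up the cytoskeleton, matrix and motility of mesenchymal cells. SNAI1 and SNAI2 (zinc finger repressors), ZEB1 and ZEB2 (zinc finger and homeodomain repressors) and TWIST1 (a basic helix-loop-helix factor) are its best known drivers, and they act on E boxes in the promoters of epithelial genes such as CDH1, which encodes E-cadherin. Squamous carcinomas of the head and neck often show only part of this program, with mesenchymal matrix and filament genes expressed beside keratins and E-cadherin.

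Libraries held between 15669154 and 62968057 counted reads. In the 4 libraries of experiment 2 with glucose both reads of a pair entered the count, and the other 10 libraries were counted from single reads, so that in experiment 2 glucose and read layout cannot be told apart. KMT2D itself, the targeted gene, stood at 265 to 279 CPM (counts scaled by library size and TMM factor) in KMT2D-WT cells with glucose, at 182 and 184 CPM in the libraries labelled KO1 and at 322 and 373 CPM in those labelled KO2, so its RNA was not lower in KO2. Without glucose it was 230.3 to 239 CPM in KMT2D-WT cells, and 19.9, 190.1, 152 and 145 CPM in the KMT2D-KO libraries. The labels of the lines were in doubt in experiment 2 without glucose. Of 29 genes that differed between the lines by at least 3 log2 units in both experiments with glucose, 27 placed the library labelled KO1 of experiment 1 without glucose nearer to KO1, but 0 of 29 did so for the library labelled KO1 of experiment 2, which lay a median of 4.72 log2 units from KO1 and 0.35 from KO2. The 2 KMT2D-KO libraries of that experiment differed by a chi-square of 1.78 per gene and its 2 KMT2D-WT libraries by 1.71, against 25.9 to 83.0 for the other pairs, where reads resampled from 1 library would give about 1. The 2 KMT2D-KO libraries of experiment 2 without glucose may thus be 1 population counted as 2 in n = 4. Its 2 KMT2D-WT libraries without glucose may likewise be 1 culture counted as 2 in n = 3. For the 10 genes, results with these pairs summed to 1 library each are given where they change a call. For the other genes named below, CDH1 and the genes of the lists among them, such results are not given. The study names 2 independent experiments for its RNA-seq, but whether libraries of 1 genotype within an experiment came from separate cultures is, apart from the labels of the lines, not given in the sources used here, so that part of the spread behind the p-values may be technical.

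The cells carried an epithelial profile in every group. A list of 12 squamous carcinoma markers summed to 4827 to 5771 CPM in KMT2D-WT and 4299 to 4737 CPM in KMT2D-KO cells with glucose. Without glucose the sums were 4794.5 to 5270 and 4678.5 to 7142 CPM, and none of the 12 was at 0 in any group. In KMT2D-KO cells 0 of the 12 were called higher and 3 lower with glucose (13.0% and 11.7% of all genes). Without glucose 6 were higher and 0 lower (25.9% and 24.9%). Of 12 fibroblast markers, 11 stayed under 1 CPM in every KMT2D-WT library with glucose, and FAP and TCF21 were at 0 there. The same 12 genes summed to 5.94 to 7.12 CPM in KMT2D-WT and 12.6 to 27.1 CPM in KMT2D-KO cells with glucose, and to 3.26 to 5.62 and 7.44 to 14.03 CPM without. COL1A1 held most of this sum, with a mean of 5.69 CPM in KMT2D-WT and 13.7 CPM in KMT2D-KO cells with glucose. COL1A2 and COL3A1 were at 0 in at least 1 KMT2D-KO library and reached 5.33 and 5.25 CPM in another. The part of these genes in the results below was not tested. Endothelial markers summed to at most 4.84 CPM, of which CDH5 rose without glucose from 0.545 to 2.67 CPM (edgeR adjusted p = 0.00143), and leukocyte markers to at most 1.21 CPM.

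Levels of the 10 genes spanned a wide range. Per kilobase of exon, KMT2D-WT cells with glucose held FN1 at 30.1 ± 1.60, SPARC at 22.5 ± 7.29 and VIM at 17.3 ± 0.970 CPM per kb (mean ± SD, n = 3). SNAI2 followed at 10.7 ± 0.424 CPM per kb, and TGFBI (4.16 ± 1.395) and TWIST1 (3.71 ± 0.831) lay within each other's spread. SNAI1 at 0.397 and ZEB1 at 0.0967 CPM per kb were far lower, and ZEB2 and CDH2 were at 0.00824 and 0.00827 CPM per kb. In KMT2D-KO cells with glucose the order was VIM at 54.1 ± 27.3, SPARC at 51.7 ± 19.3, TGFBI at 33.0 ± 5.78, SNAI2 at 15.7 ± 1.75, TWIST1 at 8.84 ± 1.08 and FN1 at 3.49 ± 0.745 CPM per kb (mean ± SD, n = 4). FN1 thus stood first of the 10 in KMT2D-WT cells and sixth in KMT2D-KO cells, while VIM and SPARC did not differ beyond their spread in KMT2D-KO cells.

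The promoters of FN1, TGFBI, SPARC and VIM are shown because these 4 genes carried most of the reads of the 10 genes and moved in different directions. The sequences are the RefSeq windows of GRCh38.p14, 250 bases before to 50 bases after the start of the gene, read 5′ to 3′ on the strand of the gene, with FN1 at chr2:215436019-215436318 (minus strand), TGFBI at chr5:136028738-136029037 (plus), SPARC at chr5:151686866-151687165 (minus) and VIM at chr10:17227991-17228290 (plus). Capitals mark GC boxes (GGGCGG or its complement CCGCCC) in FN1, TGFBI and VIM, and an E box (CANNTG) in SPARC. All 4 windows are 300 bases long.
FN1: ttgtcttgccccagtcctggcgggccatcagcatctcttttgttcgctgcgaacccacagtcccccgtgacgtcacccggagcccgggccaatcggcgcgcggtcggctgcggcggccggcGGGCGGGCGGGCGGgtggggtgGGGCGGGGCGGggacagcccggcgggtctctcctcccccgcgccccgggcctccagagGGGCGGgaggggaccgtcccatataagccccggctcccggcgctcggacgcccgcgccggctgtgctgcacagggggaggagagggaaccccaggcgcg
TGFBI: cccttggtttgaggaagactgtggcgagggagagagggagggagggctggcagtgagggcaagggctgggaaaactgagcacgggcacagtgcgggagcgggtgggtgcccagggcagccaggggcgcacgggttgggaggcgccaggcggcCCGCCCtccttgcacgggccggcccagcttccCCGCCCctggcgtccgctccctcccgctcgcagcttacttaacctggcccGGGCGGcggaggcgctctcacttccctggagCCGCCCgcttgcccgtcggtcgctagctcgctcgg
SPARC: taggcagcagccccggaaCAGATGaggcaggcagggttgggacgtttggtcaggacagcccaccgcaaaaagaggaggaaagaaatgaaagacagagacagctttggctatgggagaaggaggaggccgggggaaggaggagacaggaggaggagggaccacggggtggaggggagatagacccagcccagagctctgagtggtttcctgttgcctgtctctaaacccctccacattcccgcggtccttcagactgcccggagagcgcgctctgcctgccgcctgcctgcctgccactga
VIM: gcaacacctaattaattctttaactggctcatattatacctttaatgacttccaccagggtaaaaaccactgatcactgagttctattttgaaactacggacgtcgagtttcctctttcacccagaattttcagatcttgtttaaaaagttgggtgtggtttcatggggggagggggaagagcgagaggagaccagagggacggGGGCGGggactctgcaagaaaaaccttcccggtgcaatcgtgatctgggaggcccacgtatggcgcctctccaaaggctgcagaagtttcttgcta
Counted on both strands with overlapping matches kept, FN1 held 6 GC boxes, TGFBI 4, VIM 1 and SPARC 0, and 44.95% of all 35116 promoter windows of this length held at least 1. SPARC held 1 E box and the other 3 held none, against 68.7% of all windows with at least 1. The E box form CAGGTG or CACCTG, counted here as the E2 box, was not in these 4 windows and was in 20.6% of all windows. Windows were counted for 7 of the 10 genes, and a ZEB1 window at chr10:31318966-31319265 held 3 E2 boxes. Whether the remaining genes have a window in RefSeq is not reported here. Percentages of all windows refer to the 35116 windows that were counted. These matches describe letters in the windows only.

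In cells kept in glucose, loss of KMT2D was accompanied by a large fall of FN1 and by a rise of TGFBI, VIM, SPARC, TWIST1 and SNAI2. FN1 was 9.01-fold lower and TGFBI 7.78-fold higher in KMT2D-KO cells, and the other 4 genes were 1.49-fold to 3.18-fold higher. Of the 10 genes, 9 were tested, of which 5 were called higher and 1 lower by edgeR's quasi-likelihood test at an adjusted p-value under 0.05, whereas 24.7% of all 20423 genes tested were called, 13.0% higher and 11.7% lower. Groups that did not overlap were found for these 6 genes (20.1% of all genes), 5 with all KMT2D-KO libraries above KMT2D-WT (9.66% of all genes) and 1 below (10.4%). The median log2 fold change of the 9 genes was 1.02, beside 0.02 over all genes tested. In RNA from whole cultures, fewer expressing cells and less RNA per cell cannot be told apart. Values below are given for KMT2D-WT libraries in the order experiment 1 and then both of experiment 2, and for KMT2D-KO libraries in the order KO1 and KO2 of experiment 1, then KO1 and KO2 of experiment 2.

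**Figure D1:**
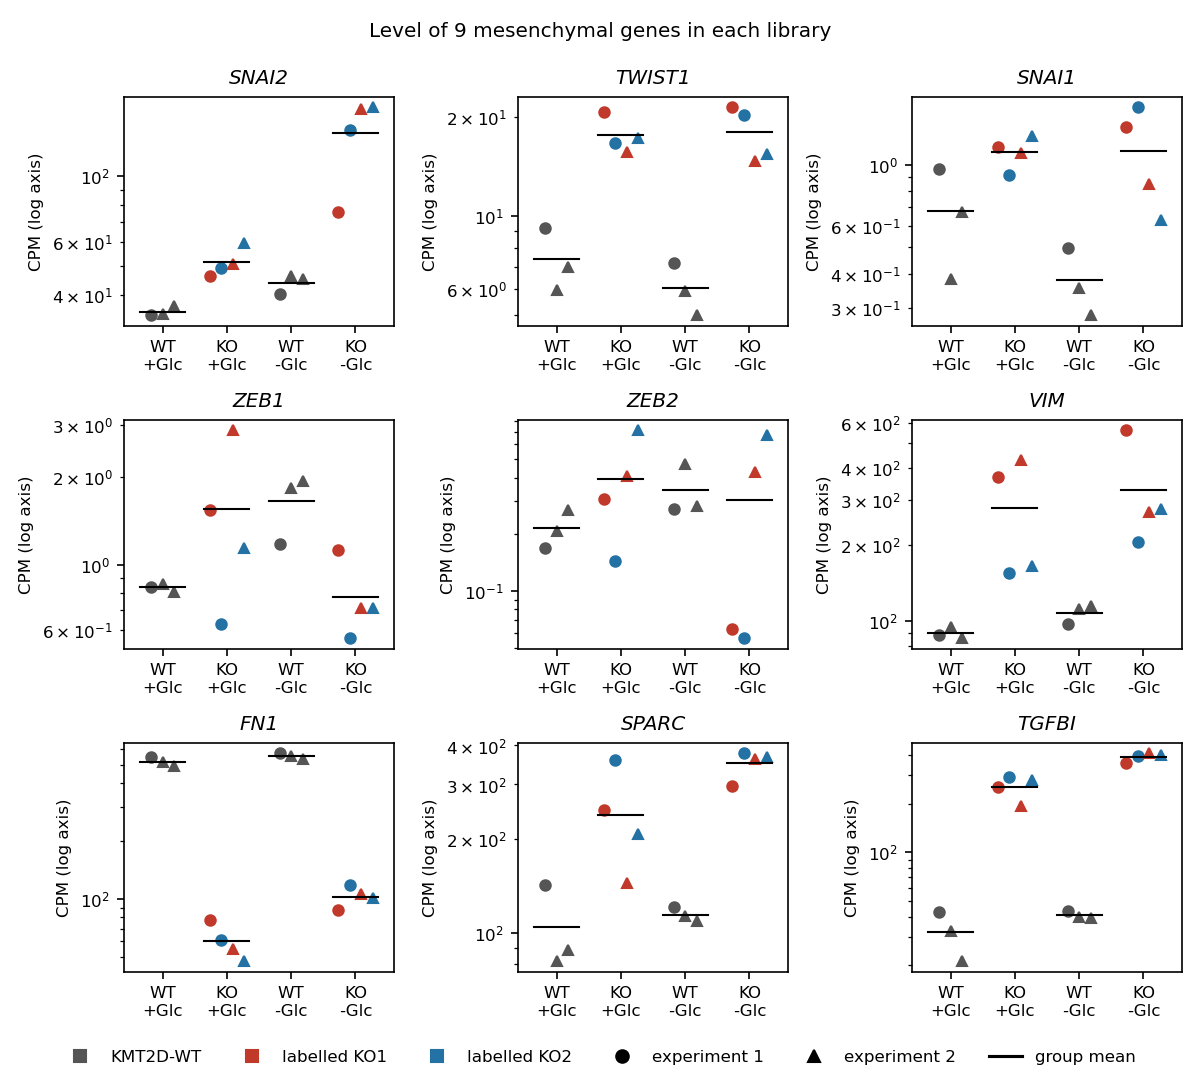
Level of 9 genes in each library, in CPM after TMM scaling on a log axis, by genotype and glucose condition, with colors for the labelled line, circles and triangles for experiments 1 and 2, and a bar at the group mean. FN1 separates the genotypes downward in KMT2D-KO cells and TGFBI upward, in both glucose conditions, and VIM splits the KO1 and KO2 libraries with glucose.

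FN1 encodes fibronectin, a matrix glycoprotein that binds integrins, and lies on chromosome 2 (GRCh38, 215360440 to 215436073, minus strand). It was measured at 545, 518 and 490.0 CPM in KMT2D-WT libraries and at 77.3, 60.9, 54.7 and 47.2 CPM in KMT2D-KO libraries with glucose. The 4 KMT2D-KO libraries all lay far below the 3 KMT2D-WT libraries, and KO1 was slightly above KO2 in both experiments. The log2 fold change was -3.17 (SE 0.12, edgeR adjusted p = 6.27e-06). Within experiments it was -2.98 in experiment 1 and -3.32 in experiment 2 (edgeR adjusted p = 0.00714 and 0.000626).

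TGFBI, a secreted matrix protein induced by TGF-beta, lies on chromosome 5 (GRCh38, 136028988 to 136063818, plus strand). It was measured at 42.6, 32.5 and 21.1 CPM in KMT2D-WT libraries and at 253, 294.5, 193 and 279 CPM in KMT2D-KO libraries. Every KMT2D-KO library was above every KMT2D-WT library, opposite in direction to FN1. The log2 fold change was 2.96 (SE 0.20, edgeR adjusted p = 4.75e-05), with 2.68 in experiment 1 and 3.13 in experiment 2 (edgeR adjusted p = 0.00714 and 0.00272).

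SPARC (osteonectin), a collagen-binding matricellular protein, lies on chromosome 5 (GRCh38, 151661096 to 151686975, minus strand). Its levels were 143, 81.3 and 88.8 CPM in KMT2D-WT libraries and 249, 359, 145 and 208 CPM in KMT2D-KO libraries. The groups did not overlap, but the KO1 library of experiment 2 lay just above the KMT2D-WT library of experiment 1. SPARC rose by a log2 fold change of 1.07 (SE 0.16, edgeR adjusted p = 0.00165). It was 1.08 in experiment 1 and 1.04 in experiment 2 (edgeR adjusted p = 0.0947 and 0.0183), and without experiment as a term the call was lost (1.21, edgeR adjusted p = 0.0941).

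VIM encodes vimentin, the intermediate filament protein of mesenchymal cells, and lies on chromosome 10 (GRCh38, 17228241 to 17237593, plus strand). It was measured at 88.3, 95.4 and 85.7 CPM in KMT2D-WT libraries and at 368, 155, 432 and 164.5 CPM in KMT2D-KO libraries. All KMT2D-KO libraries were above KMT2D-WT, and the KO1 libraries were above the KO2 libraries in both experiments. The log2 fold change over both lines was 1.67 (SE 0.36, edgeR adjusted p = 0.00989), with 1.57 in experiment 1 and 1.71 in experiment 2 (edgeR adjusted p = 0.165 and 0.0453). The call was lost without experiment as a term (1.65, edgeR adjusted p = 0.0639), without the KMT2D-WT library of experiment 1 (1.72, edgeR adjusted p = 0.0780) and without the second KMT2D-WT library of experiment 2 (1.61, edgeR adjusted p = 0.0608). Reads were counted without strand, and 24.6% of the exonic bases of VIM overlap antisense genes, VIM-AS1 among them, which was itself at 0.883 to 3.20 CPM with glucose and did not pass the test (log2 fold change -0.66, edgeR adjusted p = 0.244).

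Of the transcription factors, TWIST1 and SNAI2 rose. TWIST1 lies on chromosome 7 (GRCh38, 19020991 to 19117636, minus strand) and was measured at 9.23, 5.99 and 7.002 CPM in KMT2D-WT libraries and 20.7, 16.8, 15.7 and 17.3 CPM in KMT2D-KO libraries. Its groups stood well apart, with a log2 fold change of 1.23 (SE 0.14, edgeR adjusted p = 0.000375). SNAI2 (Slug) lies on chromosome 8 (GRCh38, 48917598 to 48921740, minus strand) and was measured at 34.2, 34.6 and 36.8 CPM in KMT2D-WT libraries and 46.3, 49.2, 50.9 and 59.7 CPM in KMT2D-KO libraries. The shift was small but every KMT2D-KO library exceeded every KMT2D-WT library (log2 fold change 0.58, SE 0.09, edgeR adjusted p = 0.00249). Within experiment 1 the log2 fold changes of TWIST1 and SNAI2 were 1.02 and 0.48 (edgeR adjusted p = 0.154 and 0.314), and within experiment 2 they were 1.34 and 0.62 (edgeR adjusted p = 0.00934 and 0.0349). Without experiment as a term SNAI2 was not called (0.55, edgeR adjusted p = 0.0707).

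SNAI1, ZEB1 and ZEB2 were low and did not pass the test with glucose over both lines. SNAI1 (chromosome 20, 49982980 to 49988886, plus strand) was at 0.969, 0.384 and 0.675 CPM in KMT2D-WT libraries and 1.17, 0.919, 1.11 and 1.27 CPM in KMT2D-KO libraries, from 8 to 75 reads per library over the study. ZEB1 (chromosome 10, 31318495 to 31529814, plus strand) was at 0.843, 0.857 and 0.810 CPM in KMT2D-WT libraries and 1.53, 0.629, 2.88 and 1.14 CPM in KMT2D-KO libraries. Both genes overlapped between genotypes, ZEB1 because the KO2 library of experiment 1 fell below all KMT2D-WT libraries. Their log2 fold changes were 0.79 (SE 0.35, edgeR adjusted p = 0.135) and 0.97 (SE 0.44, edgeR adjusted p = 0.144). ZEB2 (chromosome 2, 144364364 to 144521057, minus strand) was between 0.145 and 0.713 CPM with glucose in all 7 libraries, with a log2 fold change of 1.02 (SE 0.47, edgeR adjusted p = 0.158). SNAI1 and ZEB2 each have 1 pseudogene in the annotation (SNAI1P1 and ZEB2P1), with which they could share reads. Besides VIM, 6 of the genes overlapped antisense genes over 3.58% to 7.06% of their exonic bases, and FN1, TGFBI and SNAI1 over none.

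CDH2, which encodes N-cadherin, the cadherin that replaces E-cadherin in a full transition, was not tested because of its low counts (chromosome 18, 27932879 to 28177946, minus strand). It had 0 reads in 8 of 14 libraries, which allows a level of up to 0.0888 to 0.184 CPM by counting error alone (3 counts per library), and 1 to 13 reads in the other 6. E-cadherin (CDH1) was at 58.4, 50.8 and 57.9 CPM in KMT2D-WT libraries and 81.9, 139.9, 49.8 and 117 CPM in KMT2D-KO libraries with glucose. The KO1 library of experiment 2 lay below all KMT2D-WT libraries and the other 3 above, and CDH1 did not pass the test (log2 fold change 0.74, SE 0.29, edgeR adjusted p = 0.0951).

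Without glucose, the same genes separated the genotypes, SNAI2 by a wider margin than with glucose, and SNAI1 and ZEB1 passed the test as well. TGFBI was 9.45-fold higher and FN1 5.49-fold lower in KMT2D-KO cells, and SNAI2, SPARC, VIM, TWIST1 and SNAI1 were 2.52-fold to 3.20-fold higher. All 8 genes tested were called, 6 higher and 2 lower, in a comparison where 50.8% of all 16782 genes tested were called, 25.9% higher and 24.9% lower. The groups of all 8 did not overlap, against 35.2% of all genes, 16.3% with every KMT2D-KO library above KMT2D-WT and 18.9% with every one below. The median log2 fold change of the 8 genes was 1.501, beside 0.00 over all genes tested. In experiment 1 alone, with 1 KMT2D-WT library against 2 KMT2D-KO libraries, 0 of the 8 genes passed edgeR's test (6 had an unadjusted p-value under 0.05), as did 0 of all 17219 genes. With both experiments, DESeq2 called 8 with experiment as a term (9070 of all 16782 genes) and 7 without it (4821). With the close pairs of experiment 2 summed to 1 library each, 5 of 8 were called, FN1, SPARC, SNAI2, TWIST1 and TGFBI, as were 2785 of 16867 genes in all.

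**Figure D2:**
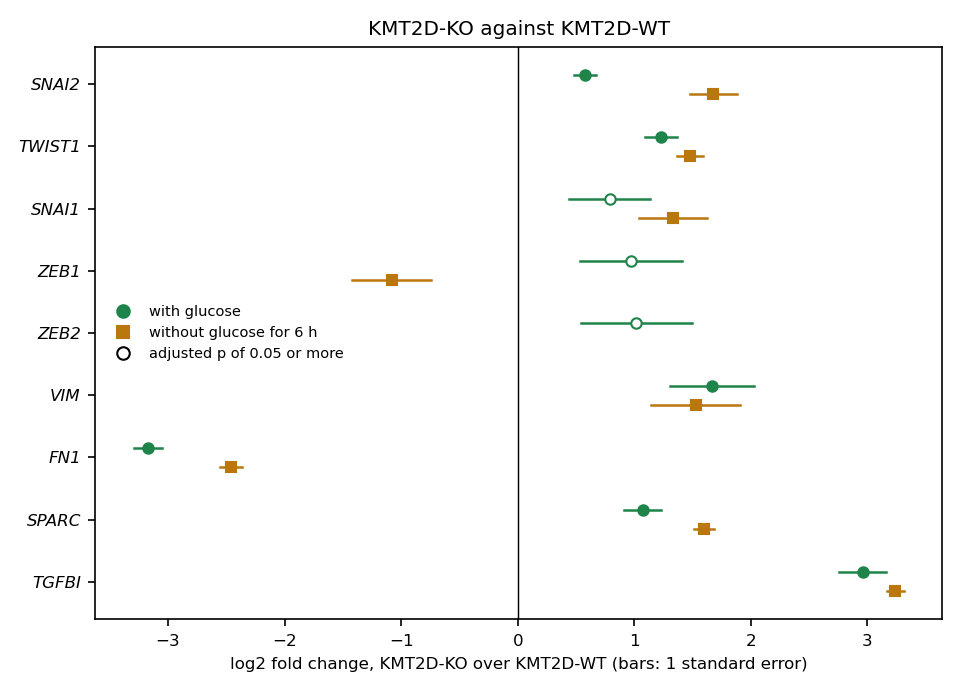
Log2 fold change of KMT2D-KO over KMT2D-WT cells for 9 genes with glucose (circles) and for 8 genes without (squares), with bars of 1 standard error and open symbols where the adjusted p-value was 0.05 or more. FN1 is the gene furthest to the left and TGFBI the one furthest to the right in both conditions, and ZEB1 lies at 0.97 with glucose and at -1.08 without.

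Among the matrix genes, FN1 was measured at 574, 553 and 538 CPM in KMT2D-WT libraries and 87.1, 118, 106 and 100.4 CPM in KMT2D-KO libraries without glucose. The gap between genotypes was clear but narrower than with glucose (log2 fold change -2.46, SE 0.09, edgeR adjusted p = 3.11e-05). TGFBI was at 43.4, 40.1 and 39.4 CPM in KMT2D-WT libraries and 359, 395, 411 and 399.5 CPM in KMT2D-KO libraries, a log2 fold change of 3.24 (SE 0.07, edgeR adjusted p = 1.21e-05). SPARC was at 121, 113 and 109.7 CPM in KMT2D-WT libraries and 297, 378, 363 and 368 CPM in KMT2D-KO libraries. All 4 KMT2D-KO libraries of SPARC lay well above the KMT2D-WT libraries (log2 fold change 1.60, SE 0.09, edgeR adjusted p = 4.78e-05). In experiments 1 and 2 taken alone, the log2 fold changes were -2.48 and -2.45 for FN1, 3.12 and 3.30 for TGFBI, and 1.48 and 1.67 for SPARC.

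VIM was at 97.4, 112 and 115 CPM in KMT2D-WT libraries and 564, 204, 269.8 and 276 CPM in KMT2D-KO libraries without glucose. The library labelled KO1 of experiment 1 was highest, and the libraries labelled KO1 and KO2 of experiment 2 were alike. The log2 fold change was 1.53 (SE 0.38, edgeR adjusted p = 0.0139), with 1.98 in experiment 1 and 1.22 in experiment 2 alone. The call was lost when the KMT2D-WT library of experiment 1 was left out (1.21, edgeR adjusted p = 0.0960). VIM-AS1 moved the other way, at 2.54, 3.82 and 5.56 CPM in KMT2D-WT libraries and 0.376, 0.448, 0.616 and 1.21 CPM in KMT2D-KO libraries (log2 fold change -2.45, SE 0.29, edgeR adjusted p = 0.000623), and without strand its reads and those of VIM cannot be told apart where they overlap.

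SNAI2 was at 40.5, 46.3 and 45.2 CPM in KMT2D-WT libraries and 75.8, 143, 167 and 169.7 CPM in KMT2D-KO libraries. The library labelled KO1 of experiment 1 was lowest of the 4 and still above all KMT2D-WT libraries (log2 fold change 1.68, SE 0.20, edgeR adjusted p = 0.000681). TWIST1 was at 7.203, 5.92 and 5.00 CPM in KMT2D-WT libraries and 21.5, 20.4, 14.8 and 15.4 CPM in KMT2D-KO libraries (log2 fold change 1.48, SE 0.11, edgeR adjusted p = 0.000128). SNAI1 was at 0.498, 0.355 and 0.282 CPM in KMT2D-WT libraries, from 8 to 12 reads each, and at 1.38, 1.63, 0.853 and 0.627 CPM in KMT2D-KO libraries. SNAI1 passed the test (log2 fold change 1.33, SE 0.29, edgeR adjusted p = 0.00801) but not without the KMT2D-WT library of experiment 1 (1.14, edgeR adjusted p = 0.0603). In experiments 1 and 2 alone the log2 fold changes were 1.44 and 1.83 for SNAI2, 1.54 and 1.41 for TWIST1, and 1.58 and 1.14 for SNAI1.

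ZEB1 was the transcription factor that fell. It was at 1.18, 1.84 and 1.94 CPM in KMT2D-WT libraries and 1.13, 0.560, 0.711 and 0.711 CPM in KMT2D-KO libraries without glucose, so that the library labelled KO1 of experiment 1 was just below the lowest KMT2D-WT library. The log2 fold change was -1.08 (SE 0.34, edgeR adjusted p = 0.0341). It was -0.48 in experiment 1 and -1.44 in experiment 2 alone, and the call was lost without either KMT2D-WT library of experiment 2 or without either KMT2D-KO library of experiment 2 (edgeR adjusted p = 0.109, 0.117, 0.127 and 0.136). ZEB1-AS1, which shares 4.58% of the exonic bases of ZEB1 on the other strand, fell as well (log2 fold change -1.88, SE 0.33, edgeR adjusted p = 0.00321). CDH2 and ZEB2 had too few reads to be tested, and ZEB2 was between 0.0560 and 0.669 CPM. CDH1 was at 61.7, 62.7 and 58.5 CPM in KMT2D-WT libraries and 61.1, 226, 212 and 205 CPM in KMT2D-KO libraries. It was called higher over all KMT2D-KO libraries (log2 fold change 1.53, SE 0.39, edgeR adjusted p = 0.0160). The library labelled KO1 of experiment 1, alone in being like KO1, lay within the range of KMT2D-WT. The rise lay in the other KMT2D-KO libraries, all like KO2 by the genes that mark the lines.

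Whether the effect of KMT2D loss depended on glucose was tested as an interaction in all 14 libraries, in which 11.3% of 18678 genes were called, 4.73% higher and 6.54% lower. Of 9 genes tested, SNAI2 and FN1 were called higher and ZEB1 lower. For SNAI2, the KMT2D-KO effect was larger without glucose by 1.13 log2 units (SE 0.24, edgeR adjusted p = 0.0132). For FN1, which was lower in KMT2D-KO cells in both conditions, the effect was smaller in size without glucose by 0.74 log2 units (SE 0.17, edgeR adjusted p = 0.0171). For ZEB1 the effect differed by -2.02 log2 units (SE 0.60, edgeR adjusted p = 0.0470). With glucose the ZEB1 effect differed between the lines (1.51 in KO1 and 0.19 in KO2, each against KMT2D-WT). By the genes that mark the lines, the KMT2D-KO libraries without glucose were 1 like KO1 and 3 like KO2. Glucose and line thus cannot be told apart in the ZEB1 value. The same mix of lines entered the values of SNAI2 and FN1. In experiment 1, SNAI2 was at 46.3 CPM with glucose and 75.8 CPM without in KO1, and at 49.2 and 143 CPM in KO2. FN1 was at 77.3 and 87.1 CPM in KO1, and at 60.9 and 118 CPM in KO2. Whether the response to glucose differed between the lines was not tested. SPARC (0.55, SE 0.21, edgeR adjusted p = 0.103) did not pass, nor did TGFBI (0.30, SE 0.23), TWIST1 (0.27, SE 0.18), SNAI1 (0.57, SE 0.47), VIM (-0.12, SE 0.54) or ZEB2 (-1.10, SE 0.74), and for VIM the interval from its standard error ran from -1.18 to 0.95. The VIM effect with glucose also differed between the lines (2.18 in KO1 and 0.85 in KO2), so glucose and line cannot be told apart in its value. It was 0.39 in experiment 1 alone and -0.44 in experiment 2 alone.

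Within experiments the interactions were as follows. In experiment 1 alone they were 0.92 for SNAI2, 0.46 for FN1 and -0.85 for ZEB1, each in the same direction, with 0 genes called by edgeR and 0 of 8 at an unadjusted p-value under 0.05. In experiment 2 alone they were 1.27, 0.92 and -2.66 (edgeR adjusted p = 0.00221, 0.00614 and 0.0317). In that experiment 1 library of each line with glucose was set against 2 libraries like KO2 without, and ZEB1 with glucose was at 2.88 CPM in KO1 and 1.14 CPM in KO2. Without experiment as a term 0 of the 9 were called by edgeR (3 had an unadjusted p-value under 0.05), as were 70 of 18678 genes in all, and 0 with the close pairs summed (3 likewise), as were 258 of 21043 genes. DESeq2 with experiment called 4 of the 9 and 3473 of 18678 genes, against 2105 by edgeR. Leaving out 1 library lowered the count to 1 of 9 for any of the 3 KMT2D-WT libraries without glucose, for the KMT2D-WT library of experiment 1 with glucose and for the library labelled KO1 of experiment 2 without glucose. SNAI2 lost the call without the KMT2D-WT library of experiment 1 with glucose (1.07, edgeR adjusted p = 0.0602), and FN1 without each of the other 4 (0.72 to 0.78, edgeR adjusted p = 0.0501 to 0.0568). ZEB1 lost it in 11 of the 14 cases.

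After glucose deprivation for 6 h, SNAI2, FN1 and TGFBI were higher in KMT2D-KO cells, and SNAI2 was slightly higher in KMT2D-WT cells. In KMT2D-WT cells 1 of 8 genes was called higher, against 14.7% of 17227 genes called, 7.15% higher and 7.58% lower. SNAI2 rose there by 0.33 on the log2 scale (SE 0.06, edgeR adjusted p = 0.0282), from a mean of 35.2 ± 1.39 to 43.998 ± 3.12 CPM (SD, n = 3 each). It was 0.24 in experiment 1 alone, where the read layout was the same in both conditions (edgeR adjusted p = 1.0), and 0.36 in experiment 2 alone (edgeR adjusted p = 0.0137). SNAI2 lost the call in 8 of 16 alternatives, among them the fit without experiment (edgeR adjusted p = 0.337), that with close pairs summed (0.187) and those without any 1 of the 4 libraries of experiment 2 (0.0776 to 0.178). VIM (0.28, edgeR adjusted p = 0.0511) and ZEB1 (0.97, edgeR adjusted p = 0.0554) did not pass. FN1 and TGFBI had log2 fold changes of 0.11 and 0.40 (edgeR adjusted p = 0.174 and 0.181).

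In KMT2D-KO cells 3 of 8 genes were called higher, against 30.0% of 16057 genes called, 14% higher and 16.0% lower. SNAI2 rose by 1.38 on the log2 scale (SE 0.20, edgeR adjusted p = 0.00402), from 51.5 ± 5.75 to 139 ± 43.7 CPM (SD, n = 4 each). FN1 rose by 0.77 (SE 0.16, edgeR adjusted p = 0.0110), from 60.0 ± 12.8 to 103 ± 12.7 CPM, which left it far under the KMT2D-WT level. TGFBI rose by 0.60 (SE 0.14, edgeR adjusted p = 0.0164), from 255 ± 44.6 to 391 ± 22.6 CPM. For all 3 genes, every KMT2D-KO library without glucose was above every KMT2D-KO library with glucose. The share of all genes that separated in this way was not computed, and the libraries without glucose included the close pair of experiment 2. SPARC (0.58), ZEB1 (-0.97), VIM (0.19), SNAI1 (-0.11) and TWIST1 (-0.01) did not pass. In experiment 1, where the read layout was the same in both conditions, the log2 fold changes in KMT2D-KO cells were 1.17 for SNAI2, 0.54 for FN1 and 0.44 for TGFBI, and in experiment 2, where both libraries without glucose were like KO2, they were 1.63, 1.04 and 0.80. TGFBI was not called when the library labelled KO1 or KO2 of experiment 2 without glucose was left out (0.58 and 0.59, edgeR adjusted p = 0.0509 and 0.0597). In KMT2D-WT cells the count was 5 of 8 when either library of experiment 1 was left out and 0 when any of the 4 libraries of experiment 2 was, and it moved with that over all genes (8744 of 18430 and 8747 of 18377 in the former cases, 0 or 1 gene in the latter).

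**Figure D3:**
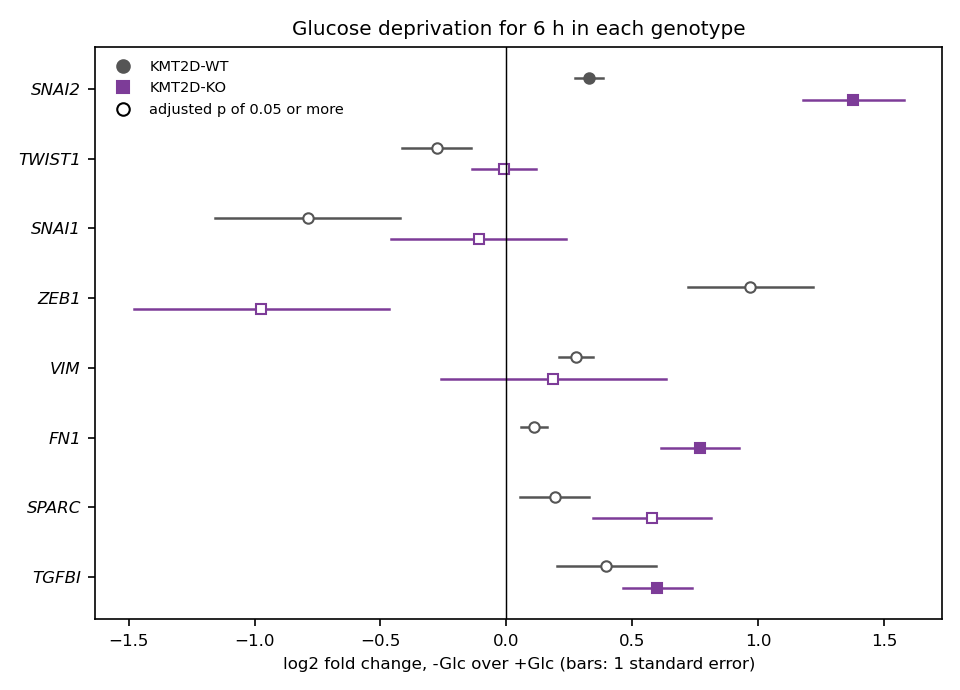
Log2 fold change of glucose-deprived over glucose-fed cells in KMT2D-WT (circles) and KMT2D-KO (squares) for 8 genes, with bars of 1 standard error and open symbols where the adjusted p-value was 0.05 or more. SNAI2 lies at 0.33 in KMT2D-WT and at 1.38 in KMT2D-KO cells, and the ZEB1 values lie on opposite sides of 0.

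The lines KO1 and KO2 differed from each other with glucose in several of these genes. Fitted against KMT2D-WT alone, KO1 gave a log2 fold change of 2.18 for VIM and KO2 gave 0.85 (edgeR adjusted p = 3.78e-10 and 1.31e-06). ZEB1 was 1.51 in KO1 and 0.19 in KO2 (edgeR adjusted p = 0.00154 and 0.754). FN1 was -3.03 and -3.30, TGFBI 2.74 and 3.15, SPARC 0.79 and 1.32, TWIST1 1.24 and 1.21, and SNAI2 0.49 and 0.66, in that order and each past the threshold in both lines. The 6 genes called over both lines had the same direction in each line with glucose. Every KMT2D-KO library of these genes already lay outside the KMT2D-WT range, so this agreement is not a separate result.

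**Figure D4:**
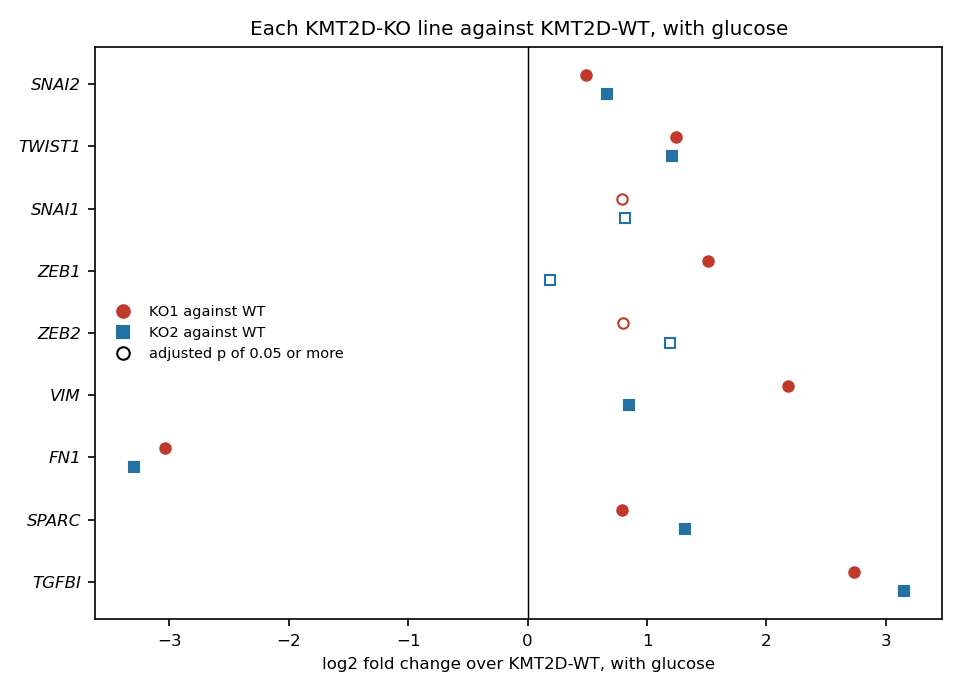
Log2 fold change over KMT2D-WT with glucose for line KO1 (circles) and line KO2 (squares), each fitted alone, with open symbols where the adjusted p-value was 0.05 or more. VIM and ZEB1 lie further to the right in KO1, while TWIST1 is near 1.2 in both lines.

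A direct comparison of the lines with glucose, with 2 libraries each and 1 residual degree of freedom, called 3 of 9 genes higher in KO1 and 2 lower, against 24.0% of 19041 genes called, 11.4% higher and 12.6% lower. VIM was higher in KO1 by 1.32 log2 units (SE 0.07, edgeR adjusted p = 2.05e-18) and ZEB1 by 1.32 (SE 0.35, edgeR adjusted p = 0.00413). FN1 was higher by 0.27 (SE 0.08, edgeR adjusted p = 0.0117), and SPARC and TGFBI were lower, with differences of -0.53 (SE 0.06, edgeR adjusted p = 3.82e-08) and -0.38 (SE 0.07, edgeR adjusted p = 4.17e-05). CDH1 was lower in KO1, with a difference of -1.02 (SE 0.08, edgeR adjusted p = 2.91e-12), opposite to VIM. The difference in TWIST1 was 0.05 with an interval from its standard error of -0.19 to 0.29. Without experiment as a term, edgeR called 0 of the 9 genes (1 had an unadjusted p-value under 0.05) and 0 of all 19041, and DESeq2 with experiment called 3 of the 9 and 2683 of all. In the fit of all 7 libraries with glucose, VIM, ZEB1 and SPARC were called, and FN1 and TGFBI were not. When any 1 of the 4 libraries was left out of that fit, VIM and SPARC stayed called and FN1 was not called. ZEB1 stayed called without the KO1 library of experiment 1 (1 of 4 cases). TGFBI was called only without the KO2 library of experiment 1 (1 of 4 cases).

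The other genes of the program were described by lists, whose counts stand beside 24.7% of all genes called with glucose (13.0% higher and 11.7% lower, median log2 fold change 0.02) and 50.8% without (25.9% higher and 24.9% lower, median 0.00). Of 18 other transcription factors of the transition, 13 were tested with glucose, of which 3 were higher and 0 lower (median log2 fold change 0.23, against 24.7% of all genes called), and 11 without, of which 7 were higher and 1 lower (median 0.62, against 50.8%). With glucose the 3 were HAND1 (2.67, SE 0.41, edgeR adjusted p = 0.00187), KLF8 (0.74, SE 0.19, edgeR adjusted p = 0.0225) and SOX4 (0.67, SE 0.21, edgeR adjusted p = 0.0468). Without glucose FOXC1, a forkhead factor, rose from 4.23 to 11.2 CPM (1.42, SE 0.14, edgeR adjusted p = 0.000273), SOX4 rose by 1.398 and YBX1, a cold shock domain protein, by 0.77.

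Of 42 genes of TGF-beta and BMP signaling, 37 were tested with glucose, with 8 higher and 8 lower (median 0.07, against 24.7% of all genes called), and 35 without, with 10 higher and 9 lower (median -0.06, against 50.8%, so the count without glucose was near the background). The ligand TGFB2 rose in KMT2D-KO cells, from a mean of 5.33 to 22.8 CPM with glucose (2.12, SE 0.67, edgeR adjusted p = 0.0466) and from 10.2 to 122 CPM without (3.62, SE 0.70, edgeR adjusted p = 0.00512), whereas the ligand TGFB1 fell by 0.88 with glucose (SE 0.10, edgeR adjusted p = 0.000392) and did not pass without (-0.16, edgeR adjusted p = 0.493). LTBP1, which holds latent TGF-beta in the matrix, rose from 0.127 to 2.69 CPM with glucose and from 0.1802 to 2.37 CPM without (edgeR adjusted p = 0.000453 and 0.000156), and its relative LTBP2 fell from 73.0 to 28.1 CPM and from 68.0 to 22.1 CPM (edgeR adjusted p = 0.000116 and 4.33e-05). The feedback inhibitors PMEPA1 and SMAD7 rose with glucose by 1.44 (SE 0.41, edgeR adjusted p = 0.0321) and 1.12 (SE 0.23, edgeR adjusted p = 0.00727), and FST, which encodes the activin antagonist follistatin, had log2 fold changes of -1.09 with glucose and -1.06 without (edgeR adjusted p = 0.00676 and 0.00528). TGFB2 ranged widely among KMT2D-KO libraries, from 6.83 to 42.3 CPM with glucose and from 12.8 to 182 CPM without.

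Of 50 other mesenchymal effectors, 37 were tested with glucose, with 10 higher and 10 lower (median 0.24, against 13.0% and 11.7% of all genes), and 34 without, with 18 higher and 7 lower (median 0.58, against 25.9% and 24.9%). The gap junction gene GJA1 was at a mean of 0.128 CPM in KMT2D-WT and 16.6 CPM in KMT2D-KO cells with glucose, and TAGLN, an actin-binding protein, rose from 15.5 to 106 CPM with glucose and from 31.5 to 339 CPM without (edgeR adjusted p = 0.0498 and 0.00409), although with glucose the lowest KMT2D-KO library, at 14.2 CPM, lay within the KMT2D-WT range. MMP3 (stromelysin) rose by 3.21 with glucose and LOX, a collagen cross-linking enzyme, by 2.57 (edgeR adjusted p = 0.0105 and 0.000123). MMP14, a membrane metalloproteinase, had log2 fold changes of -3.06 with glucose and -2.57 without (edgeR adjusted p = 0.0323 and 0.0214), and ITGA5, the alpha chain of a fibronectin receptor, fell by 1.78 without glucose (SE 0.26, edgeR adjusted p = 0.00150). THBS1, a matricellular thrombospondin, rose without glucose from 300.3 to 2069 CPM (edgeR adjusted p = 2.76e-05).

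A list of 46 partial-transition genes of oral carcinoma, which includes VIM and TGFBI, had 15 higher and 10 lower of 42 tested with glucose (median 0.28, against 13.0% and 11.7% of all genes), and 21 higher and 6 lower of 40 without (median 0.54, against 25.9% and 24.9%). Outside the genes already described, LGALS1, which encodes galectin-1, fell from 148 to 37.8 CPM with glucose (log2 fold change -2.25, SE 0.13, edgeR adjusted p = 2.63e-05), and EMP3 had a log2 fold change of -3.01 (edgeR adjusted p = 0.0188). Of 45 epithelial identity genes, all tested with glucose, 8 were higher and 7 lower (median -0.02, against 13.0% and 11.7% of all genes), and of 44 tested without glucose 22 were higher and 6 lower (median 0.45, against 25.9% and 24.9%). MAL2, a membrane trafficking protein of epithelial cells, was at 0 in all KMT2D-WT libraries with glucose and at 2.71 to 33.3 CPM in KMT2D-KO libraries, and without glucose at 0 to 0.0352 and 4.15 to 19.4 CPM (edgeR adjusted p = 0.00266 and 0.000620). The tight junction gene CLDN1 rose from 20.4 to 79.2 CPM with glucose and from 31.1 to 257 CPM without (edgeR adjusted p = 0.00312 and 0.00121), and the transcription factor KLF4 from 7.44 to 25.6 and from 13.8 to 167 CPM (edgeR adjusted p = 0.000167 and 4.33e-05). The basal keratin KRT14 fell by 1.74 on the log2 scale with glucose (edgeR adjusted p = 0.00627) and did not pass without (-0.18, edgeR adjusted p = 0.447), whereas its partner KRT5 rose without glucose by 2.86 (edgeR adjusted p = 0.0207) and did not pass with glucose (1.44, edgeR adjusted p = 0.412). Without glucose KRT5 ranged from 15.3 to 225 CPM in KMT2D-KO and from 19.4 to 22.9 CPM in KMT2D-WT libraries. The lowest KMT2D-KO library thus lay below all KMT2D-WT libraries. The protease PRSS8 had log2 fold changes of -6.16 with glucose and -4.94 without, and ESRP2, an epithelial splicing regulator, fell by 0.82 without glucose (edgeR adjusted p = 0.00531). Its paralog ESRP1, named after its values were seen, rose by 0.32 with glucose and 0.72 without (edgeR adjusted p = 0.0267 and 0.000620).

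The patterns of single genes across the 14 libraries were compared by Pearson correlation of log2 CPM after removing the mean of each experiment within each glucose condition, over 14266 genes with a mean of at least 1 CPM. The 3 genes most alike were AC105460.1, TMEM245 and LIMK2 for FN1 (r = 0.995 to 0.996), NIPA2, SLC4A4 and TMED9 for TGFBI (0.996 to 0.998), and NIFK, VBP1 and TMEM164 for VIM (0.989 to 0.993). For the transcription factors they were MTA1, CSNK2A2 and ARTN for SNAI2 (0.991 to 0.994), AHR, ALDH3A2 and RAB2A for TWIST1 (0.993 to 0.995) and ZNF75D, UBL4A and NEIL2 for ZEB1 (0.945 to 0.976), and for SPARC they were TRAP1, LCN2 and CYBA (0.997 to 0.998). The libraries fall into the 2 genotypes, so for most of these genes such values describe the difference between genotypes that the genes share.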

How the data were processed

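RNA-seq libraries of SCC23 cells (3 KMT2D-WT and 4 KMT2D-KO per glucose condition) were analysed from deposited gene counts. The authors mapped reads to GRCh38 with HISAT2 and counted them per gene name with featureCounts 2.0.3 on Ensembl 102, without strand, as whole counts that were not normalized. In 4 libraries both mates of a pair were counted. Total counts were 15669154 to 62968057 per library.

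From the deposited counts, each comparison was fitted in R 4.3.3 by the quasi-likelihood test of edgeR 4.0.16 (genes kept by filterByExpr at its minimum count of 10, TMM factors, Benjamini-Hochberg adjustment over all genes tested, threshold 0.05). The methods of the study name DESeq2 and no covariate, which was an alternative (DESeq2 1.42.0). Experiment, given in the titles of the labels, was a term in each fit. Over genes, differences between experiments correlated between the genotypes at 0.880 with glucose and 0.808 without, so libraries were treated as paired by experiment. The interaction used experiment within glucose condition. SE is the log2 fold change divided by the square root of the F statistic. CPM used TMM factors of all 14 libraries, and CPM per kb the gene length of the count files.

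Named genes were the 10 genes, KMT2D, antisense transcripts of the 10, and in each list up to 4 called genes per direction with the largest log2 fold change and a mean of at least 1 CPM, of which some are given. CDH1 with glucose, CDH5 without, and COL1A1, COL1A2 and COL3A1 are given beside them. Genes and lists were chosen with earlier results of these data known. The list of 8 possible antisense names had 3 in the files. Alternatives were other scalings and filters, DESeq2, no experiment term, single lines and experiments, halved counts of the 4 libraries with both mates, summed close pairs, 1 fit of 14 libraries, and each library left out. Added after seeing the data was 1 fit of the 7 libraries with glucose for KO1 against KO2. The fits were tested on simulated data, and the outcome is not reported here. Gene positions were taken from GENCODE 44 and promoter windows from RefSeq. The values of 1 gene of the lists are not reported here.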

Additional observations from a re-analysis of the deposited data

Results flagged for a closer look

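CDH2 in KMT2D-KO cells with glucose had 1 library apart from the other 3. The KO2 library of experiment 2 had 13 reads (0.221 CPM) and the others 0, 0 and 1, and its gap took 0.931 of the range of the group. This was 1 of 20 gene and group combinations examined, and chance sets apart about 1 in 20.

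The KMT2D-KO effect differed between glucose conditions by 1.13 log2 units for SNAI2, by 0.741 for FN1 and by -2.02 for ZEB1 (edgeR adjusted p = 0.0132, 0.0171 and 0.0470). ZEB1 rested on 10 to 190 reads per library. For ZEB1 glucose and line cannot be told apart, since 3 of the 4 KMT2D-KO libraries without glucose were like KO2. The same mix of lines entered the SNAI2 and FN1 values. In experiment 1 both genes rose more in KO2 than in KO1 after glucose deprivation. SNAI2 went from 49.2 to 143 CPM in KO2 and from 46.3 to 75.8 CPM in KO1. FN1 went from 60.9 to 118 CPM in KO2 and from 77.3 to 87.1 CPM in KO1.

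With glucose, the lines KO1 and KO2 differed by 1.32 log2 units in VIM, 1.32 in ZEB1, 0.272 in FN1, -0.528 in SPARC and -0.382 in TGFBI, with KO1 higher where the value is positive. VIM and CDH1 lay in opposite order between the lines in both experiments.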

How the results depend on the processing

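Over 51 results of single genes, 898 values under alternatives were computed. Of these, 748 kept their direction and their side of the threshold, 89 lost and 28 gained the call, and 33 changed sign. The limits are the single KMT2D-WT library of experiment 1, the close pairs and doubtful line labels of experiment 2 without glucose, read layout in experiment 2, and the low counts of SNAI1, ZEB1, ZEB2 and CDH2. The causes of the changes below were not tested.

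With glucose, 6 genes were called for KMT2D-KO against KMT2D-WT, 3 without the replicate block (experiment not in the fit, 971 of all genes in place of 5042) and 2 in experiment 1 alone (304 of 17620). Without glucose, 8 were called, 0 in experiment 1 alone (0 of all genes), 5 with close pairs summed (2785 of 16867) and 7 without the replicate block (3659 of 16782, ZEB1 lost), against 8521 of 16782. For the glucose dependence of the effect 3 were called, 0 without the replicate block, 0 in experiment 1 alone and 0 with close pairs summed, and 1 to 4 when 1 library was left out. With library-size scaling 2 were called (FN1 lost), and 4 each by DESeq2 and without a filter on low counts. For glucose deprivation in KMT2D-WT cells 1 was called, 4 by DESeq2, 2 with RLE scaling, 3 without a filter on low counts, 2 with halved counts, 0 without the replicate block (2 with an unadjusted p-value under 0.05), in experiment 1 alone, in 1 fit of 14 libraries and with close pairs summed, and 0 to 5 when 1 library was left out. In KMT2D-KO cells 3 were called, 0 in experiment 1 alone (1 with an unadjusted p-value under 0.05, and 20 of all genes) and 5 in experiment 2 alone (11782 of 20804), and 2 without the replicate block, where TGFBI was at an adjusted p of 0.0504 by edgeR. For KO1 against KO2 5 were called, 0 without the replicate block, 3 by DESeq2, 3 in 1 fit of 7 libraries and 2 to 3 when 1 library was left out of that fit. Fits of KO1 against KO2 within 1 experiment were not run, since each has 1 library per line.

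All values that changed sign belonged to results that had not passed the test. The interaction for VIM (-0.12) was 0.39 in experiment 1 alone, 0.013 with close pairs summed, and -0.45 to 0.33 with 1 library left out (0.13, 0.33 and 0.03 where it was positive). For glucose deprivation, SPARC in KMT2D-WT cells was -0.24 in experiment 1 alone. In KMT2D-KO cells VIM was -0.022 with library-size scaling, -0.12 in experiment 2 alone, and -0.23 to 0.60 with 1 library left out (-0.06 and -0.23 where negative). SNAI1 was 0.50 in experiment 1 alone, 0.049 with close pairs summed, and -0.31 to 0.12 with 1 library left out (0.02 and 0.12 where positive). TWIST1 was 0.0055 without the replicate block, 0.010 in 1 fit of 14 libraries, 0.061 by DESeq2, 0.062 with RLE scaling, 0.019 without a filter, 0.13 in experiment 1 alone, 0.048 with close pairs summed, and -0.088 to 0.057 with 1 library left out. For KO1 against KO2, SNAI1 was -0.015 with RLE scaling and -0.0060 in 1 fit of 7 libraries, and with 1 library left out SNAI1 ranged from -0.36 to 0.59, TWIST1 from -0.16 to 0.31 and ZEB2 from -0.78 to 1.01.

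Library-size scaling shifted the median log2 fold change of all genes by -0.25 in KMT2D-KO against KMT2D-WT cells without glucose, by -0.23 in the interaction and by -0.20 for glucose deprivation in KMT2D-KO cells.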
